A study of Mus musculus with 8 samples.

Results

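C1q macrophages are tumour macrophages that make the 3 chains of complement C1q. They were chosen from 24838 cells of lung adenocarcinomas that held 500 or more UMIs (counted RNA molecules) from 250 or more genes, with no more than 15% of the UMIs from mitochondria. A cell was a member when C1qa, C1qb and C1qc were all detected, when their sum was at least 10 UMIs, and when that sum exceeded the sum of 7 alveolar macrophage genes (Chil3, Ear2, Fabp1, Krt79, Plet1, Car4, Ltc4s). Members also had at most 3 UMIs of Krt7, Krt8 and Krt18 together and none of Cd3e or Cd79a. This gave 960 cells, or 3.87% of the total, of which 233 and 134 came from mA1 libraries 1 and 2 and 451 and 142 from Con libraries 1 and 2.

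The tumours grew in KPC mice after lentivirus was delivered into the trachea, and the largest were taken 16 weeks later. CRISPR activation was directed to tumour cells with dead guide RNAs against Malat1 (mA1 dRNA) or against Tomato (Con dRNA), and both groups carry the KPC tumour model and the activation system. Each group has 4 tumours in 2 libraries, and a tumour was read as the cells of 1 library that carry 1 of 2 hashtag antibodies; 1a, for example, is library 1 with hashtag 1 and 1b is library 1 with hashtag 2. Whether hashtags of the same library stand for different animals is not given in the labels. The p-values therefore measure the spread between these samples, which may be partly technical, and tumours of 1 library share that library.

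C1q is the recognition part of the classical complement pathway: it binds antibody-coated or dying cells and starts the cascade that ends in their clearance. Macrophages are its main source in many tissues. In mouse lung, interstitial macrophages lie in the tissue around airways and vessels, carry MHC class II and Cx3cr1, and differ from the alveolar macrophages that live in the airspaces and depend on the transcription factor Pparg. Tumour-associated macrophages that descend from monocytes often share the C1q, Apoe and MHC class II genes.

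The genes of the C1q chains lie side by side on chromosome 4 (GRCm38, mm10), from 136880126 to 136898844, a span of 18.7 kb. C1qb occupies 136880126 to 136886200, C1qc 136889801 to 136892936 and C1qa 136895916 to 136898844, and each is annotated as protein-coding. Apoe, the lipid carrier of macrophages, lies on chromosome 7 from 19696244 to 19701310, and Ms4a7, a membrane protein gene of tissue macrophages, on chromosome 19 from 11321039 to 11336146. The promoters of 4 of these 5 marker genes are printed because the genes mark the population together. Each runs from 250 bases before to 50 bases after a RefSeq start on GRCm38.p6, the first of 3 listed for Apoe and of 2 for Ms4a7. The Apoe window lies inside the span of that gene given above. Each is read 5′ to 3′ on the gene's own minus strand, and has matches to GAGGAA (the core bound by PU.1) or TGCTGA (a half-site of MAF factors) on either strand in capitals.
C1qb, chr4:136886151-136886450: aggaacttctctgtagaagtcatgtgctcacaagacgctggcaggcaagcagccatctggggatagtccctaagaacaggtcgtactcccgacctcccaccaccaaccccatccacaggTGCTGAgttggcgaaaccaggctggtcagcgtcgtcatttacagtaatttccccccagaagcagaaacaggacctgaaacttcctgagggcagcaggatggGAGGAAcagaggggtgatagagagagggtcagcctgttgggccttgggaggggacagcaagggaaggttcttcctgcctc
C1qc, chr4:136892865-136893164: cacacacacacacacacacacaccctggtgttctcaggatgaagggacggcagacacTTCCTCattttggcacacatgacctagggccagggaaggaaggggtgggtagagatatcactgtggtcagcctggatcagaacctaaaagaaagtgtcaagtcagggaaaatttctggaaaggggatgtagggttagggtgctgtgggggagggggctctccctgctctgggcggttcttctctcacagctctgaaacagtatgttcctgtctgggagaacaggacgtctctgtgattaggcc
Apoe, chr7:19699139-19699438: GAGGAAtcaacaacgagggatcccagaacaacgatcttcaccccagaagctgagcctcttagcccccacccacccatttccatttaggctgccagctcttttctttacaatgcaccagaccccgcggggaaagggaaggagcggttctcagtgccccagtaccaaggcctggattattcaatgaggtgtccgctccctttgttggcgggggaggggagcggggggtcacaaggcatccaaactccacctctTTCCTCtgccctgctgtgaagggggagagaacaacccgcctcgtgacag
Ms4a7, chr19:11336097-11336396: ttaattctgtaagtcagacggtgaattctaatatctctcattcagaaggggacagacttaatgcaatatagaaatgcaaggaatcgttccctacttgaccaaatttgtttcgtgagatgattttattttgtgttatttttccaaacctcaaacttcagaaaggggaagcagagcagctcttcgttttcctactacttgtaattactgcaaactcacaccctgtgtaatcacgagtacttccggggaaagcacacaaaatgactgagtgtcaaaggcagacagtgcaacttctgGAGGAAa
The GAGGAA letters occurred once each in the C1qb, C1qc and Ms4a7 windows and at 2 places in the Apoe window, and TGCTGA occurred in the C1qb window. Among 32851 mouse promoters of the same length, 28.3% held GAGGAA and 19.5% held TGCTGA, with no overlap between the motifs in the windows shown. A match is a run of letters and not a measured binding site. Spi1, which encodes PU.1, was present in the members at 437.0 ± 41.0 CPM (SD, n = 8 tumours), and Maf at 68.4 ± 32.1 CPM.

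The members had a median of 10220 UMIs and 2640 genes, against 4776 UMIs over all cells. Of the 960 members, 879 carried exactly 1 hashtag, 36 carried both (3.75%) and 45 carried none, with a median of 2192 UMIs in these last cells. The tumours held 46, 160, 65 and 58 members in mA1 tumours 1a, 1b, 2a and 2b, and 102, 317, 67 and 64 in Con tumours 1a, 1b, 2a and 2b, with 406706 to 3177534 member UMIs per tumour. Passing cells of different libraries shared 343 barcodes, which touched 6 members. Both tumours of Con library 2 expressed Xist in the members (1094 and 1092 CPM), while the other 6 tumours had at most 2.46 CPM, so sex and library cannot be told apart there. Levels are CPM (UMIs of a gene scaled to a fixed total) of UMIs summed over the members of a tumour, and they are 3′ tags, 1 per molecule.

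The number of C1q UMIs chose the members and is given as a description. A member held a median of 150 C1q UMIs, with quartiles at 86 and 220 and a highest value of 535. The 14 members at 10 to 14 UMIs were shallow cells, with a median of 1175 UMIs in all, and had 0.846% of their UMIs in Apoe. The 12 cells just outside, at 5 to 9 UMIs, had a median of 2646 UMIs and 0.204% of their UMIs in Apoe. Free RNA gave few such UMIs: 1.52% to 3.16% of T cells per library held a C1qa UMI at median depths of 3544 to 4670 UMIs. The chains stood in nearly 1 proportion in every tumour, with C1qa at 38.5% to 42.4%, C1qb at 36.8% to 39.1% and C1qc at 20.4% to 22.7% of the C1q UMIs. C1qa was at 5938, 5854, 6513 and 5719 CPM in mA1 tumours and at 6921, 6368, 5049 and 5251 CPM in Con tumours, in the order 1a, 1b, 2a, 2b used for every such list. The groups overlapped, and the lowest values were those of Con library 2.

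The markers that the rule did not use were those of an interstitial or monocyte-derived macrophage. Alveolar macrophages, gated by the mirror rule in the same tumours (7388 cells with a median of 14352 UMIs), and monocytes (254 cells with a median of 6212 UMIs) served for comparison, with no test, since every gene of cells chosen by expression depends on that choice. Apoe averaged 17043 ± 8440 CPM in C1q macrophages, against 44.7 ± 40.9 CPM in alveolar macrophages and 2147 ± 1003 CPM in monocytes (SD, n = 8 tumours). Ms4a7 averaged 542.0 ± 208.0 CPM in C1q macrophages, 20.6 ± 4.09 CPM in alveolar macrophages and 5.9 ± 5.59 CPM in monocytes. A gene was counted as higher than in alveolar macrophages when its mean was at least 2-fold higher and it was higher in all 8 tumours, and as lower in the mirror case. Over all 8124 genes compared outside the rule, 695 (8.55%) were higher and 805 (9.91%) were lower. Of the 20 genes on a list of interstitial macrophage identity, 14 were higher and 1 was lower. The plot of levels in the myeloid classes shows these genes side by side.

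**Figure D1:**
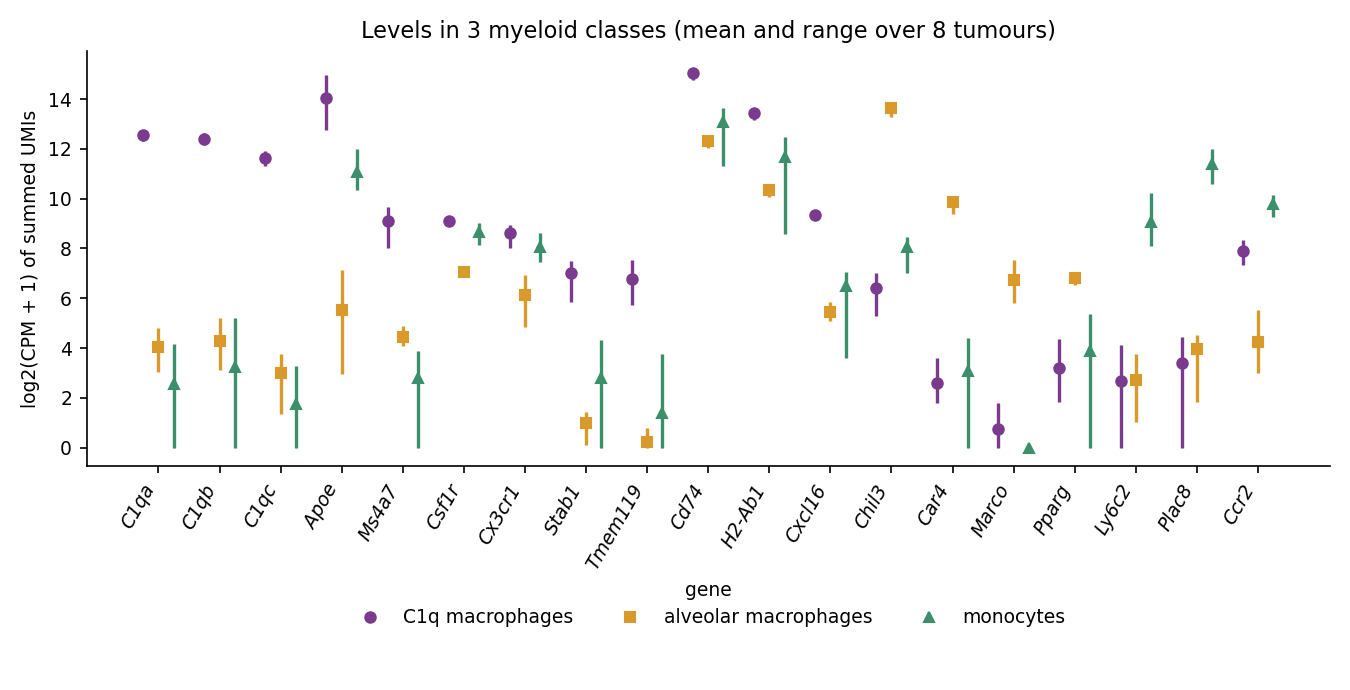
Mean level (point) and lowest to highest tumour (line) of each gene in C1q macrophages, alveolar macrophages and monocytes, as log2(CPM + 1) of UMIs summed per tumour, over 8 tumours. Apoe, Ms4a7, Csf1r, Stab1 and Tmem119 sit higher in C1q macrophages than in alveolar macrophages, with Tmem119 at 109.0 against 0.167 CPM, and Plac8 sits highest in monocytes, at 9.43 CPM in C1q macrophages against 2703 CPM.

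Several receptors of the macrophage lineage were higher than in alveolar macrophages. Csf1r, the receptor for the growth factor that macrophages need to survive, was at 544.0 ± 38.5 CPM in C1q macrophages and 132.0 ± 8.19 CPM in alveolar macrophages. Cx3cr1, the fractalkine receptor, was at 388.0 ± 79.9 CPM in C1q macrophages, against 69.2 ± 36.5 CPM in alveolar macrophages. Maf, a transcription factor of tissue macrophages, was 29.1-fold higher than in alveolar macrophages, but the 22 macrophage transcription factor genes listed went both ways, with 6 higher and 7 lower by the same measure. Tmem119, Olfml3 and Fcrls, which in mouse are best known from microglia, were at 109.0, 103.0 and 161.0 CPM in C1q macrophages and at 0.167, 0.375 and 1.15 CPM in alveolar macrophages. Stab1, a scavenger receptor for modified proteins, was at 130.0 CPM in C1q macrophages and at 0.958 CPM in alveolar macrophages.

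Several defining markers of resident perivascular macrophages were low when all members were summed. Lyve1, a hyaluronan receptor, reached at most 5.83 CPM in a tumour, and Cd163, the haemoglobin scavenger receptor, at most 28.0 CPM. Folr2, a folate receptor, averaged 10.5 ± 8.57 CPM, and Timd4, a phosphatidylserine receptor, averaged 0.0393 CPM. The list of such markers as a whole was not low: of the 8 genes with enough counts to compare, 4 were higher than in alveolar macrophages and 0 were lower. Its 16 genes summed to a mean of 747 CPM in C1q macrophages and 518 CPM in alveolar macrophages, with Marcks at 385 CPM in C1q macrophages. Both sums include Ltc4s, an alveolar macrophage gene that the rule used to separate these classes. The name of interstitial macrophages rests on Cx3cr1, Csf1r, Apoe and Ms4a7 summed over all members, and position in the tissue was not measured. For Cx3cr1 and Csf1r the values given above cover C1q and alveolar macrophages only. The monocyte rule required Csf1r, so its detection does not separate members from monocytes. In clusters 4 and 5, described below, Ms4a7 was at 140.0 and 110.0 CPM against 1356 CPM in cluster 1. Cx3cr1 was at 275.0 and 132.0 against 877.0 CPM, and Csf1r at 511.0 and 408.0 against 852.0 CPM. In clusters 6 and 7, Ms4a7 was at 481.0 and 261.0 CPM, Cx3cr1 at 225.0 and 354.0 CPM and Csf1r at 376.0 and 452.0 CPM. The name thus has a weaker basis for the cells of clusters 4 to 7.

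Genes of antigen presentation on MHC class II were higher than in both other classes. The invariant chain gene Cd74 was at 33774 ± 2857 CPM in C1q macrophages, 5165 ± 646.0 CPM in alveolar macrophages and 8620 ± 3302 CPM in monocytes. H2-Ab1, a class II chain, was at 11190 ± 980.0 CPM in C1q macrophages and 1291 ± 141.0 CPM in alveolar macrophages. Ciita, the master regulator of class II genes, was at 179.0 CPM in C1q macrophages and 26.2 CPM in alveolar macrophages. Of the 11 class II genes listed, 10 were higher than in alveolar macrophages by this measure and 0 were lower. The 11 genes together took 57187 to 73182 CPM in C1q macrophages across tumours, with means of 9912 CPM in alveolar macrophages and 18440 CPM in monocytes.

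Several chemokine and cytokine genes were higher than in alveolar macrophages. Of 26 chemokine and receptor genes, 14 were higher by the same measure and 1 was lower, although their summed level was 9454 CPM in C1q macrophages and 10511 CPM in alveolar macrophages. Of 19 cytokine and growth factor genes compared, 9 were higher and 2 were lower. Cxcl16, the ligand of Cxcr6 on T cells, was at 655.0 ± 40 CPM in C1q macrophages, against 42.5 ± 8.8 CPM in alveolar macrophages and 88.4 ± 43.6 CPM in monocytes. Ccl12, a monocyte attractant of the mouse, was at 172.0 CPM in C1q macrophages and 0.823 CPM in alveolar macrophages. The inflammatory cytokine gene Il1b was at 1869 ± 833.0 CPM in C1q macrophages, 223.0 ± 83.2 CPM in alveolar macrophages and 1417 ± 785.0 CPM in monocytes. Tnfsf13b, which encodes the B cell survival factor BAFF, was 26.5-fold higher than in alveolar macrophages. Cd86, a co-stimulatory ligand for T cells, was at 171.0 CPM in C1q macrophages and 13.7 CPM in alveolar macrophages. Warm enzymatic dissociation is known to raise immediate early genes. Of 26 such genes, 16 were higher in C1q than in alveolar macrophages, among them Jun at 1078 against 338.0 CPM, and their part in the Il1b and chemokine levels was not tested.

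The complement list was split. Beside the C1q chains, which the rule fixed, 13 of its genes could be compared: 4 were higher, among them C3ar1, Cfp and Itgam, and C3, Itgb2 and Cd93 were lower than in alveolar macrophages by the same measure. C3, the central component of the cascade, was at 39.4 ± 33.8 CPM in C1q macrophages and 138.0 ± 21.3 CPM in alveolar macrophages. C3ar1, the receptor for a fragment of C3, was at 159.0 ± 19.1 CPM in C1q macrophages, against 19.7 ± 7.37 CPM in alveolar macrophages. C1rb, C1s1 and Vsig4 had no UMI in the members.

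Genes of lipid storage and of the airspace programme were lower. Of 20 measured genes of lipid-associated macrophages, 4 were higher and 11 lower than in alveolar macrophages. Lpl, a triglyceride lipase, was at 213.0 ± 59.9 CPM in C1q macrophages and 1959 ± 232.0 CPM in alveolar macrophages, and Gpnmb, a lysosomal membrane glycoprotein gene, at 32.7 ± 36.5 CPM and 403.0 ± 123.0 CPM in the same order. Trem2, a lipid-sensing receptor, was at 283.0 ± 90.5 CPM in C1q macrophages and 178.0 ± 33.7 CPM in alveolar macrophages. Pparg was at 8.21 CPM in C1q macrophages against 111.0 CPM in alveolar macrophages, Marco at 0.674 against 106.0 CPM and Ear1 at 0.841 against 293.0 CPM. Scavenger and efferocytosis genes gave 4 higher and 6 lower of 16 measured, and lysosomal genes gave 3 higher and 1 lower of 21.

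Some members lay close to the alveolar macrophage side of the rule. Of the 960 members, 196 held no UMI of the 7 alveolar macrophage genes and 203 (21.1%) held 10 or more, which ranged from 13.7% of the members of Con tumour 1a to 48.4% of those of Con tumour 2b. Chil3, a chitinase-like protein of alveolar macrophages, was at 84.2 ± 34.0 CPM in C1q macrophages against 12948 ± 2288 CPM in alveolar macrophages, whereas Plet1 was at 247.0 ± 131.0 CPM in C1q macrophages against 1262 ± 90.1 CPM. Monocyte genes were low: Ly6c2 was at 5.45 CPM in C1q macrophages and 535.0 CPM in monocytes, and Plac8 at 9.43 and 2703 CPM in the same order. Ccr2, the receptor that brings monocytes from the marrow to inflamed tissue, was at 235.0 ± 46.5 CPM in C1q macrophages, 17.7 ± 11.7 CPM in alveolar macrophages and 876.0 ± 171.0 CPM in monocytes. RNA of genes known from lung epithelium was present, with a UMI of the surfactant gene Sftpc in 35.8% of members (701 UMIs), an Epcam UMI in 19.6% and 5 Cldn4 UMIs in all, and its part in the levels was not tested. Epcam differed between the clusters described next, at 101 and 113 CPM in clusters 4 and 5 against 3.02 CPM in cluster 1. Cdh1 was at 56.6 and 87.7 against 2.01 CPM in the same clusters, whereas Sftpc was at 44.0 and 75.9 against 63.3 CPM. Epcam and Cdh1 thus did not follow Sftpc over these clusters, and their source was not tested.

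The members were not uniform. Clustered on their own, without the genes of the rule and without sex-linked genes, they gave 7 clusters, which are described by their leading genes and with no test. Cluster 1 (145 cells) carried the genes of perivascular and resident macrophages that were low in the sum. Cd163 was at 53.3 CPM in cluster 1 and 0.314 CPM in the other members, Folr2 at 83.4 and 2.51 CPM, and F13a1, a clotting factor of resident macrophages, at 149.0 and 3.25 CPM. Cxcl13, the chemokine that draws B cells, was at 364.0 CPM in cluster 1 and 0.419 CPM in the other members, and Stab1 at 507.0 and 84.6 CPM. Lyve1 reached 10.1 CPM in cluster 1.

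Cluster 3 was the most numerous (260 cells) and was led by Ms4a7 at 1124 CPM and Apoe at 33817 CPM, against 434.0 and 13812 CPM in the other members. It also carried Tmem119 at 196.0 CPM and the highest Cd74 level of the 7 clusters, at 47898 CPM. Cluster 2 (124 cells) was led by heat-shock and immediate early genes, with Hspa1a at 3547 CPM against 1098 CPM in the other members and Atf3 at 1611 against 457.0 CPM. Apoe was at 32130, 26820 and 33817 CPM in clusters 1, 2 and 3. In clusters 4, 5, 6 and 7 it was at 3897, 5777, 21509 and 6881 CPM.

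Cluster 4 (129 cells) was led by Prg4, Cxcl9, Scgb1a1, Plac8, Retnla and Cxcl10. Cxcl9 and Cxcl10, interferon-induced chemokines for T cells, were at 265.0 and 322.0 CPM in cluster 4 and at 10.6 and 73.9 CPM in the other members. Ccr2 was at 517.0 CPM in cluster 4 against 178.0 CPM. Cluster 5 (160 cells) was led by Nrg1, Ccl22, Ccr7, Il4i1 and Flrt3 and carried Vegfa, the vessel growth factor gene, at 121.0 CPM against 10.5 CPM in the other members. Ccl22 was at 304.0 against 13.6 CPM and Ccr7, the receptor that leads dendritic cells to lymph nodes, at 81.6 against 3.88 CPM. These are also markers of dendritic cells, which the rule did not exclude, so cluster 5 was given no cell type name. Cluster 4 was given none either. The dendritic cell gene Cd209a was at 56.6 CPM in cluster 4, 60.1 CPM in cluster 5 and 8.04 CPM in cluster 1. In cluster 4, Ccr7 was at 0 and Ccl22 at 23.9 CPM. Cells with 10 or more alveolar macrophage UMIs made up 41.9% of cluster 4, 52.5% of cluster 5, 35.1% of cluster 6 and 25% of cluster 7. Such cells made up 1.38% of cluster 1, 9.68% of cluster 2 and 3.08% of cluster 3. Of the 7 alveolar macrophage genes, Ear2 was at 563.0 and 406.0 CPM in clusters 4 and 5 against 43.2 CPM in cluster 1. Plet1 was at 317.0 and 559.0 against 8.04 CPM. Chil3 was at 114.0 and 87.3 against 95.5 CPM, and Ltc4s at 54.1 and 61.4 against 45.2 CPM. Fabp1, Car4 and Krt79 reached at most 8.77 CPM in clusters 1, 4 and 5.

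Cluster 6 (74 cells) was led by Saa3, Gpnmb, Gzma and Nkg7. It carried Spp1, which encodes osteopontin, at 2833 CPM against 252.0 CPM in the other members, Arg1, the arginine-degrading enzyme, at 297.0 against 35.1 CPM, and the lysosomal protease gene Ctsd at 6335 against 833.0 CPM. All 4 members that the doublet caller Scrublet marked were in this cluster, where the cytotoxic cell genes Gzma and Nkg7 were at 186.0 and 59.1 CPM. Both hashtags were carried by 8 of its cells, as by 8 in cluster 4 and 7 in cluster 5. Chil3, Fabp1 and Car4 had their highest levels of the 7 clusters here, at 315.0, 50.9 and 28.2 CPM. Ear2 and Plet1, at 271.0 and 209.0 CPM, were below clusters 4 and 5. The part of alveolar macrophage RNA in the levels of cluster 6 was not tested. Cluster 7 (68 cells) was led by genes of the cell cycle, with Top2a at 503.0 CPM against 6.06 CPM in the other members. C1qa was present in all 7 clusters, from 3276 CPM in cluster 5 to 8929 CPM in cluster 3, and C1qa took 39.4% to 41.9% of the C1q UMIs in each.

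**Figure D2:**
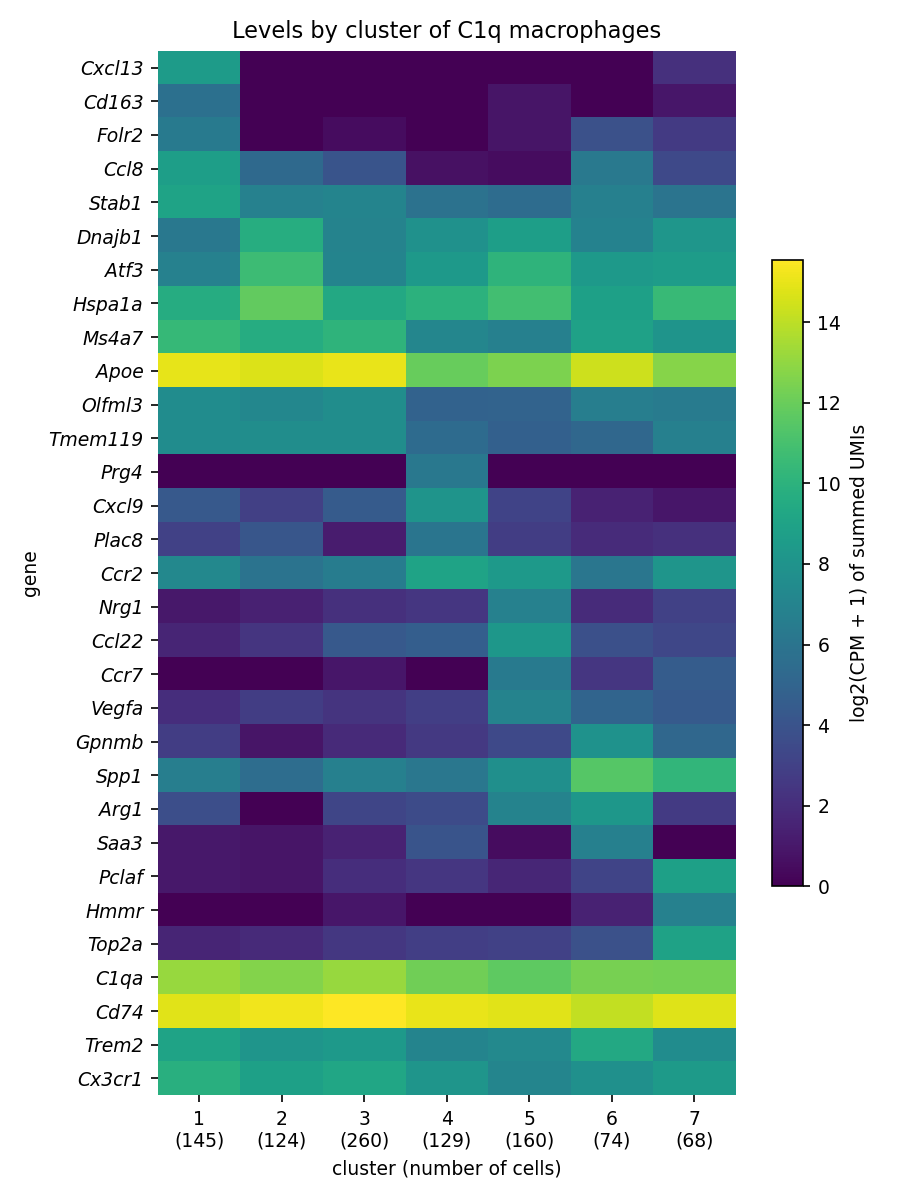
Level of leading genes (rows) in the 7 clusters of C1q macrophages (columns, number of cells below), as log2(CPM + 1) of UMIs summed over the cells of a cluster. Cd163 and Folr2 are highest in cluster 1, Ccl22 and Ccr7 in cluster 5, Spp1 and Gpnmb in cluster 6 and Top2a in cluster 7, while C1qa and Cd74 are high in every column.

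The mixture of clusters varied between tumours of 1 group. Cluster 1 held 17.4%, 12.5%, 21.5% and 6.9% of the members in mA1 tumours and 12.7%, 14.2%, 37.3% and 10.9% in Con tumours. Con tumour 2a stood above the other 7. Cluster 3 held 19.6%, 23.8%, 36.9% and 27.6% of the members in mA1 tumours and 45.1%, 26.2%, 5.97% and 10.9% in Con tumours. The tumours of Con library 2 were below the other 6, and the tumours of Con library 1 were within or above the mA1 range. Cluster 5 averaged 18.7 ± 5.12% in mA1 and 14.9 ± 4.93% in Con tumours, and cluster 4 averaged 14.9 ± 6.31% and 16.9 ± 6.17% in the same order (SD, n = 4 each). In all 7 clusters the groups overlapped.

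**Figure D3:**
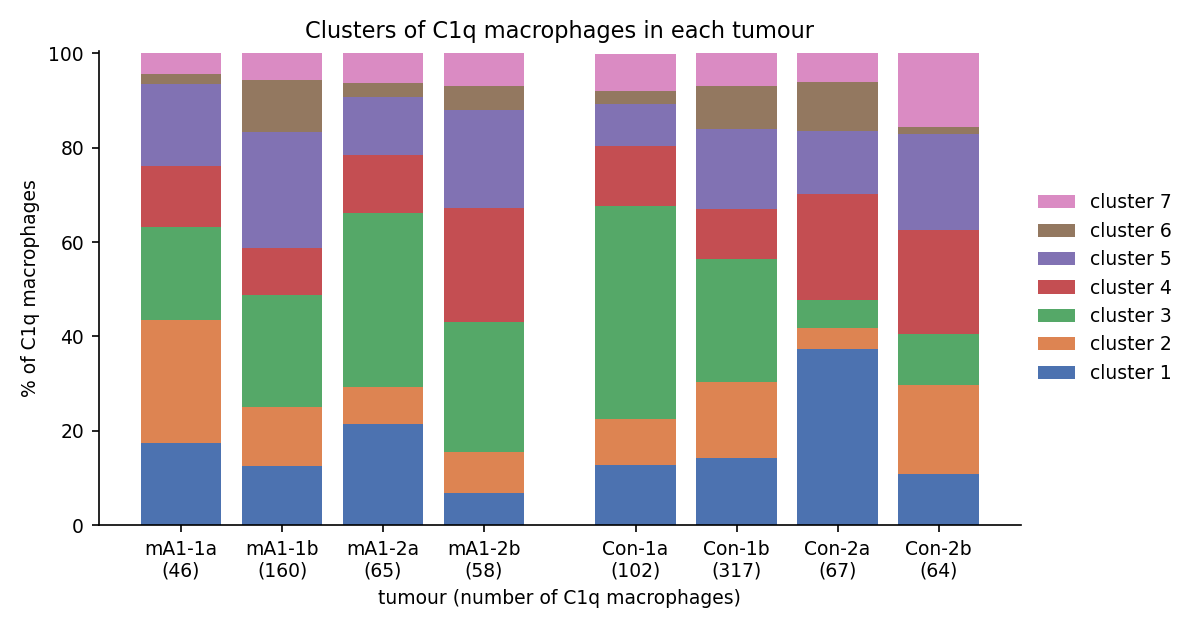
Share of the C1q macrophages of each tumour (bars, number of cells below) in clusters 1 to 7, with the 4 mA1 tumours on the left and the 4 Con tumours on the right. Cluster 3 (green) runs from 5.97% in Con tumour 2a to 45.1% in Con tumour 1a, and cluster 1 (blue) reaches 37.3% in Con tumour 2a.

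Whether the guides changed how many C1q macrophages a tumour held was asked with 2 denominators. As a share of all cells, C1q macrophages made up 1.86%, 3.68%, 3.89% and 3.45% in mA1 tumours and 5.19%, 7.16%, 1.85% and 3.89% in Con tumours. The groups overlapped, with the tumours of Con library 1 above all mA1 tumours and Con tumour 2a below them. The means were 3.22 ± 0.924% in mA1 and 4.52 ± 2.23% in Con tumours (SD, n = 4 each; two-sided exact permutation p = 0.371), and without Con library 1 the difference of mA1 minus Con turned to 0.347 percentage points.

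As a share of C1q and alveolar macrophages together, they made up 5.2%, 9.19%, 7.96% and 7.95% in mA1 tumours and 11.7%, 17.6%, 11.1% and 15.6% in Con tumours. All 4 mA1 tumours were below all 4 Con tumours. The means were 7.57 ± 1.68% in mA1 and 14 ± 3.15% in Con tumours, a difference of -6.45 percentage points. The two-sided exact permutation p was 0.0286, the smallest that 70 arrangements of 8 tumours can give, and 0.0571 after Benjamini-Hochberg adjustment over both denominators, so the difference did not pass the threshold of 0.05. The same share was 8.29% and 8.23% in the mA1 libraries and 16% and 13% in the Con libraries when all members of a library were counted (exact permutation p = 0.333, the smallest for 4 libraries). This ratio moves with its denominator: alveolar macrophages were 38.8 ± 4.8% of cells in mA1 and 27.1 ± 11.2% in Con tumours (exact permutation p = 0.114). They were least frequent in Con library 2, at 14.8% and 21.0%. Median UMIs per member were 11179 ± 2401 in mA1 and 11226 ± 2669 in Con tumours.

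**Figure D4:**
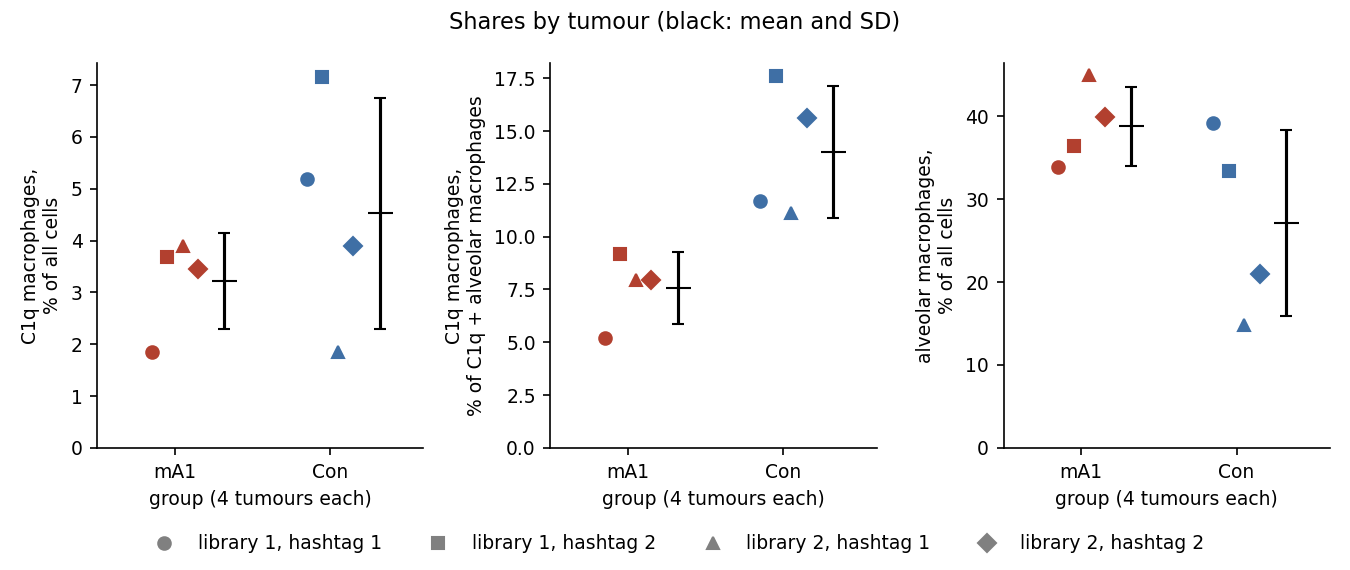
Shares by tumour in mA1 (left, red) and Con (right, blue) tumours, with symbols for library and hashtag and the mean ± SD in black: C1q macrophages among all cells, C1q macrophages among C1q and alveolar macrophages, and alveolar macrophages among all cells. In the middle panel the mA1 tumours lie between 5.2% and 9.19% and the Con tumours between 11.1% and 17.6%.

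Malat1, a nuclear long noncoding RNA and the target of the guides in tumour cells, was looked at first among the genes, although these cells are not the ones the activation was directed to. It was at 13678, 10837, 16235 and 14223 CPM in the C1q macrophages of mA1 tumours and at 14157, 13606, 13252 and 12867 CPM in those of Con tumours. The groups overlapped, and the log2 fold change of mA1 over Con was 0.04 ± 0.11 (SE; edgeR quasi-likelihood test, adjusted p = 1.0).

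Across 7132 genes tested in the C1q macrophages, 0 passed an adjusted p of 0.05 in either direction (edgeR quasi-likelihood test on 4 mA1 and 4 Con tumours, 0% called each way). At an unadjusted p under 0.05 there were 267 genes (3.74%), and DESeq2 called 0 with 144 at an unadjusted p under 0.05. The groups of 4 tumours did not overlap for 208 genes (2.92%). With no filter on low counts, 26 of 16104 genes passed in edgeR, 11 higher and 15 lower in mA1. The 10 genes with the smallest p had adjusted p from 0.421 to 0.485 and are given as values; all but Sqle were among those 26.

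F10, which encodes coagulation factor X and is made by some macrophages, was at 66.4, 81.1, 83.2 and 93.4 CPM in mA1 tumours and at 26.5, 50.4, 50.1 and 29.3 CPM in Con tumours. All mA1 values were above all Con values, with a log2 fold change of 1.03 ± 0.20 (SE; edgeR adjusted p = 0.421). Sqle, the squalene epoxidase of cholesterol synthesis, was at 34.4, 24.7, 24.3 and 21.0 CPM in mA1 tumours and at 10.6, 11.3, 12.8 and 12.5 CPM in Con tumours, again without overlap (log2 fold change 1.10 ± 0.23). Spty2d1 averaged 84.6 ± 16.9 CPM in mA1 and 49.5 ± 5.62 CPM in Con tumours. Nr4a2, an immediate early nuclear receptor, averaged 159.0 ± 39.7 CPM in mA1 and 99.5 ± 14.6 CPM in Con tumours, with 1 mA1 tumour inside the Con range.

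The other 6 of the 10 genes had lower values in mA1 tumours. Hspa5, the main chaperone of the endoplasmic reticulum, was at 834.0, 756.0, 681.0 and 721.0 CPM in mA1 tumours and at 966.0, 1023, 1025 and 1231 CPM in Con tumours, with a log2 fold change of -0.49 ± 0.11 (SE; edgeR adjusted p = 0.421). Clu, the secreted chaperone clusterin, averaged 15.1 ± 7.9 CPM in mA1 and 45.2 ± 12.9 CPM in Con tumours, and Rhob, a small GTPase gene, averaged 120.0 ± 39.1 CPM in mA1 and 217.0 ± 23.8 CPM in Con tumours. Igha, an antibody heavy chain, averaged 34.8 ± 15 CPM in mA1 and 77.2 ± 3.48 CPM in Con tumours, and Jchain, which joins IgA and IgM molecules, 11.8 ± 7.43 CPM in mA1 and 28.3 ± 4.16 CPM in Con tumours. Antibody genes are made by plasma cells, and the log2 fold changes of both were of like size in the alveolar macrophages of the same tumours, at -1.24 for Igha and -1.19 for Jchain, against -1.20 and -1.34 in C1q macrophages. The 8 B and plasma cell genes summed to 118.0 to 280.0 CPM in the members of mA1 tumours and 256.0 to 294.0 CPM in those of Con tumours, with Cd79a at 0 by the rule, and their part in these values was not tested.

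**Figure D5:**
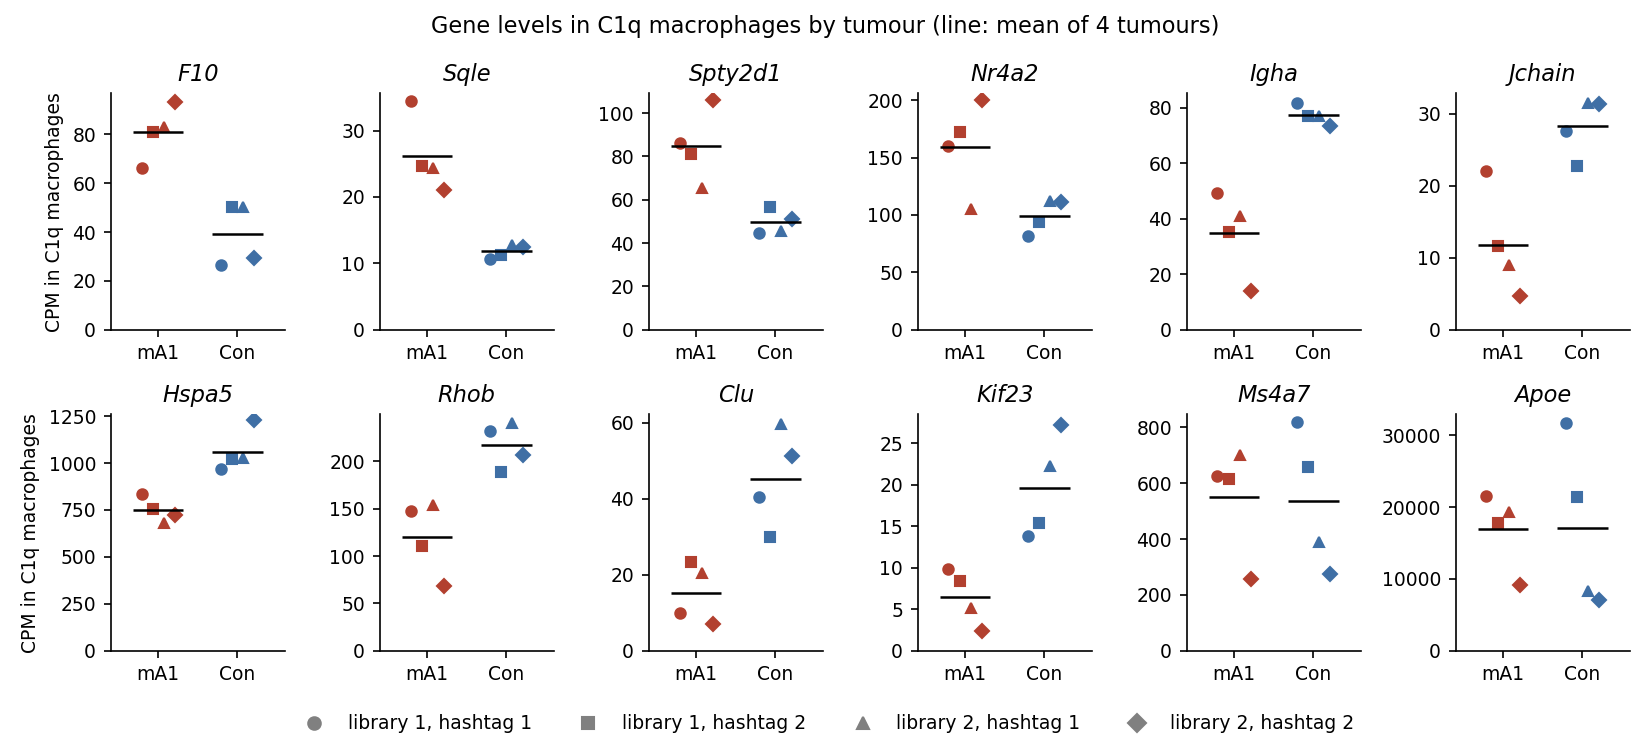
CPM in C1q macrophages of the 4 mA1 (left, red) and 4 Con (right, blue) tumours for the 10 genes with the smallest p, and for Ms4a7 and Apoe, with a line at the mean of each group and symbols for library and hashtag. F10 lies at 66.4 to 93.4 CPM in mA1 and 26.5 to 50.4 CPM in Con tumours, while Apoe spans 9195 to 21556 CPM in mA1 and 7006 to 31693 CPM in Con tumours.

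None of the 30 gene lists that describe macrophage functions and other cell types had a member that passed the test. Over all genes tested, the median log2 fold change of mA1 over Con was 0.00, and 3545 genes were positive and 3587 negative. For interstitial macrophage identity, 6 of 20 tested genes were positive and 14 negative, with a median of -0.04. Of 8 tested genes of resident perivascular macrophages 1 was positive, with a median of -0.12 that became -0.81 without mA1 tumour 2a. For MHC class II, 8 of 11 were positive, with a median of 0.05, and for lipid-associated genes 6 of 18, with a median of -0.06. Complement gave 3 positive and 10 negative of 13 and a median of -0.11, chemokines and receptors 12 and 12 of 24 and a median of 0.00, and cytokines and growth factors 8 and 10 of 18 and a median of -0.05. Lysosomal genes had a median of -0.04, Fc receptors 0.00, checkpoint genes 0.05, MHC class I genes 0.14, iron and haem genes -0.01 and macrophage transcription factors 0.00. Spi1 was the only gene of that last list whose groups did not overlap, at 469.0 ± 17.8 CPM in mA1 and 404.0 ± 28.1 CPM in Con tumours (log2 fold change 0.22 ± 0.11).

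The medians farthest from 0, among lists with at least 10 genes tested, were those of the cell cycle, scavenger receptors, the interferon response and glycolysis. The cell cycle list had 18 of 19 genes negative and a median of -0.33, with 3 genes at an unadjusted p under 0.05. That median was -0.06 without mA1 library 1 and -0.81 without members holding 10 or more alveolar macrophage UMIs. Cluster 7, led by genes of the cell cycle, averaged 5.76% of members in mA1 and 9.09% in Con tumours. Its part in the median was not tested. Mki67, a gene of dividing cells, had a UMI in 4.94 ± 3.72% of members in mA1 and 4.1 ± 1.38% in Con tumours after thinning to 2000 UMIs per cell, and in 17.5% and 13.9% unthinned, in the same order. The scavenger and efferocytosis list had 13 of 15 negative and a median of -0.24, which was -0.04 without Con tumour 2a. The interferon list had 13 of 15 positive and a median of 0.20, but its summed level was 558.0 to 1215 CPM in mA1 and 520.0 to 937.0 CPM in Con tumours, and the median turned to -0.34 without mA1 library 2. Glycolysis and hypoxia genes had 12 of 15 positive and a median of 0.20, which was 0.03 without mA1 tumour 1b. Immediate early genes had 8 positive and 18 negative, with a median of -0.12 and overlapping summed levels of 14122 to 18507 CPM in mA1 and 13389 to 22044 CPM in Con tumours.

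Markers of other cells were followed in the same way. The 10 dendritic cell genes summed to 232.0 to 361.0 CPM in the members of mA1 tumours and 78.4 to 212.0 CPM in those of Con tumours. The summed levels did not overlap, and the 4 genes tested, Cd209a, Ccr7, Ccl22 and Tcf4, had positive fold changes (median 0.65, moving to 0.29 when library 1 of mA1 was left out and to 1.53 when library 1 of Con was) with none past the threshold. The 16 alveolar macrophage genes, among them the 7 of the rule, summed to 816.0 to 1090 CPM in mA1 and 833.0 to 1434 CPM in Con tumours. Classical monocyte genes summed to 467.0 to 737.0 CPM in mA1 and 455.0 to 1233 CPM in Con tumours, and neutrophil genes to 9.34 to 140.0 CPM in mA1 and 28.6 to 119.0 CPM in Con tumours. T cell genes summed to 2.33 to 10.0 CPM in mA1 and 15.2 to 20.8 CPM in Con tumours, without overlap, with Cd3e at 0 by the rule. The mA1 tumours held 406706 to 1899767 member UMIs, so these sums rest on few UMIs, and 0 T cell genes could be tested. Among all the gene lists, only the dendritic and T cell sums did not overlap. The sums were not tested, and with many lists some can separate by chance. Epithelial genes summed to 138.0 to 236.0 CPM in mA1 and 204.0 to 267.0 CPM in Con tumours. The part of these cells' RNA in the differences above was not tested.

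Macrophage states were also counted as the share of members with a UMI of a state marker, after each cell was thinned to 2000 UMIs; 5 cells per group were too shallow, and 324 mA1 and 545 Con cells entered. H2-Ab1 was found in 97.4 ± 2.63% of members in mA1 and 96.3 ± 3.05% in Con tumours, and Ccr2 in 23.8 ± 6.54% and 23.0 ± 4.05% in the same order (SD, n = 4 each). Spp1 was found in 10.6 ± 2.41% of members in mA1 and 15.4 ± 6.81% in Con tumours, a difference of -4.73 percentage points that was -0.913 with cells thinned to 1000 UMIs and -8.5 unthinned (25.9% in mA1 and 34.4% in Con tumours, two-sided exact permutation p = 0.0857, adjusted p = 0.686). Trem2 was found in 41.3%, 39.7%, 42.2% and 32.8% of members in mA1 tumours and in 46.1%, 44.6%, 29.9% and 10.9% in Con tumours. The lowest shares were again those of Con library 2, and the difference of mA1 minus Con, 6.14 percentage points, turned to -6.32 without it. Of the 12 markers counted, 0 had an adjusted p under 0.05 (two-sided exact permutation tests, unadjusted p from 0.257 to 0.857, adjusted p = 0.857 for each). Lyve1, Cd163, Ly6c2 and Folr2 were each found in at most 7.46% of the thinned members of any tumour.

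Whether the guides acted differently on C1q and on alveolar macrophages was tested as an interaction, with the tumour as a block. Of 11270 genes, 2 (0.0177%) passed, and 523 had an unadjusted p under 0.05. Kif23, a motor protein of cell division (chromosome 9, 61917277 to 61946810), was 1 of the 2. It was at 9.84, 8.42, 5.12 and 2.33 CPM in C1q macrophages of mA1 tumours and at 13.8, 15.4, 22.2 and 27.2 CPM in those of Con tumours, without overlap. The mA1 tumours held 406706 to 1899767 member UMIs, so these levels rest on few Kif23 UMIs. Among the members, Kif23 was at 98.8 CPM in cluster 7 and at most 5.03 CPM in the other clusters. Cluster 7 held 2, 9, 4 and 4 members of the mA1 tumours and 8, 22, 4 and 10 of the Con tumours. Its share averaged 5.76 ± 1.07% of members in mA1 and 9.09 ± 4.42% in Con tumours (SD, n = 4 each), with overlap. In alveolar macrophages Kif23 was at 42.4, 37.9, 34.5 and 41.8 CPM in mA1 tumours and at 22.0, 29.3, 36.2 and 35.5 CPM in Con tumours. The interaction was -1.87 ± 0.32 (SE; edgeR adjusted p = 0.0424), and the fold change within C1q macrophages alone, -1.52 ± 0.35, had an adjusted p of 0.483. Top2a, another division gene, was at 9.84, 28.4, 89.5 and 37.3 CPM in C1q macrophages of mA1 tumours and at 28.6, 70.8, 90.9 and 115.0 CPM in those of Con tumours, which overlapped. With the 4 libraries as samples, 0 genes passed the interaction test in edgeR and 531 had an unadjusted p under 0.05, whereas 139 passed with no filter on low counts. For Kif23 the adjusted p was 0.299 when mA1 library 2 was left out and 0.0757 when Con library 2 was.

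Apoe and Ms4a7 varied between tumours within both groups. Apoe was at 21556, 17788, 19291 and 9195 CPM in mA1 tumours and at 31693, 21484, 8329 and 7006 CPM in Con tumours. Con library 1 was high and Con library 2 low, while mA1 tumour 2b was the only low one of its group. Ms4a7 had the same low tumours, at 627.0, 615.0, 701.0 and 257.0 CPM in mA1 and 818.0, 657.0, 389.0 and 275.0 CPM in Con tumours. These are leading genes of cluster 3, and Apoe, Ms4a7 and the share of that cluster are measured on the same cells.

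Secreted factors made up most of the genes with the widest spread outside the rule and the sex-linked genes. Retnla, a product of alternatively activated macrophages, was at 0, 197.0, 160.0 and 52.5 CPM in mA1 tumours and at 4.24, 37.1, 732.0 and 81.6 CPM in Con tumours. Spp1 was at 61.5, 466.0, 1547 and 98.0 CPM in mA1 tumours and at 239.0, 454.0, 1664 and 78.4 CPM in Con tumours, with hashtag 1 of library 2 highest in each group. In that mA1 tumour, 20% of members held an Spp1 UMI unthinned, the lowest share of the 8 tumours, and 2 of its members were in cluster 6, where Spp1 was at 2833 CPM. Ccl22, a chemokine for regulatory T cells, was at 2.46, 177.0, 92.1 and 140.0 CPM in mA1 tumours and at 31.8, 64.8, 15.2 and 18.8 CPM in Con tumours, with the lowest value in an mA1 tumour. The growth factor gene Igf1 averaged 36.1 ± 18.2 CPM in mA1 and 75.5 ± 51.6 CPM in Con tumours, and Areg, an EGF receptor ligand, 82.5 ± 43.3 and 95.0 ± 112.0 CPM in the same order. The neutrophil chemokine Cxcl1 averaged 98.8 ± 69.5 CPM in mA1 and 67.5 ± 66.9 CPM in Con tumours. None of these had an adjusted p under 1.0 in the edgeR test of mA1 against Con. By contrast the MHC class II genes varied little, with H2-Ab1 at 9194 to 12337 CPM and Cd74 at 28060 to 37220 CPM over the 8 tumours.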

How the data were processed

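The deposited files are UMI counts per gene and cell barcode, 1 matrix per library, with 32286 gene and 19 antibody features. Per the submitters' processing notes they were made with Cell Ranger 6.0.1 on mm10, and per the labels' protocols the libraries used the 10x 3′ version 3 kit. The values are whole numbers, and the 4 libraries held 48319272 to 74996867 gene UMIs in 31084 barcodes. The members and the gene lists were chosen with earlier results of these data known.

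Hashtags (hashtag 1 acccaccagtaagac, hashtag 2 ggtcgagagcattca, per the labels' protocols) were assigned with a 2-component Gaussian mixture of log10 counts, fitted on cells with at least 10 counts of the tag, at a posterior of 0.5. Cells with both or none entered no test over tumours. Doublets were otherwise kept. Scrublet marked 171, 31, 77 and 0 cells in mA1 libraries 1 and 2 and Con libraries 1 and 2, among them 4 members, and was taken not to have worked in Con library 2. Alveolar macrophages had at least 10 UMIs of the 7 alveolar genes and more of them than of C1q. Monocytes had Csf1r and at least 5 UMIs of monocyte genes.

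The sums of UMIs per tumour entered edgeR 4.0.16 under R 4.3.3 (robust two-sided quasi-likelihood test, filterByExpr, TMM), with the genes of the rule left out of the test and Benjamini-Hochberg adjustment over all genes at 0.05. Errors of fold changes are standard errors of that model. Shares were compared by exact permutation over tumours. Tumours held 46 to 317 members, and the depth of the smaller ones limits the precision. Clusters came from 1500 variable genes, 20 principal components and the Leiden method (scanpy 1.11.5, 15 neighbours, resolution 0.5). Scripts were tested on simulated data. Of 420 genes on 30 lists, 417 were in the files. Named genes were the rule's genes and markers, the 10 with the smallest p where fewer than 6 passed, leading genes of each list and class, the 10 with the largest SD over tumours, and those that passed the interaction. Other genes named were chosen after their values were seen. Some results are not reported here. Alternatives were DESeq2 1.42.0, other scaling, no filter on low counts, other limits, libraries as samples, a replicate block and leaving out tumours or libraries.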

Additional observations from a re-analysis of the deposited data

Results flagged for a closer look

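Single tumours stood far from the rest of their group in several genes of the C1q macrophages. For values not chosen by their spread, chance alone marks about 1 group in 20 in this way. Retnla, Mucl1, Ccl24 and Ccl5 were among the genes named for the largest SD over these same tumours. That choice favours outliers, so the rate does not apply to these genes. Retnla was at 732.0 CPM in Con tumour 2a, against 4.24 to 81.6 CPM in the other Con tumours. Mucl1, a leading gene of cluster 1, was at 104.0 CPM in mA1 tumour 1b and at 356.0 CPM in Con tumour 1b, with at most 4.18 CPM in the other 6 tumours. Ccl24, an eosinophil attractant, was at 91.6 CPM in mA1 tumour 1b and at 307.0 CPM in Con tumour 2a. Ccl5 was at 137.0 CPM in Con tumour 1b, against 16.7 to 26.8 CPM in the other Con tumours. Cluster 1 held 37.3% of the C1q macrophages of Con tumour 2a, against 10.9% to 14.2% in the other Con tumours.

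Kif23 passed the edgeR interaction test between C1q and alveolar macrophages, with a log2 difference of -1.87. In C1q macrophages it rests on few UMIs, mostly from the dividing cells of cluster 7, at 98.8 CPM against at most 5.03 CPM in the other clusters. The interaction lost significance with the 4 libraries as samples, where the difference was -1.63 (edgeR adjusted p = 0.508).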

How the results depend on the processing

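The difference in the share of C1q macrophages among macrophages, mA1 minus Con, was -7.61 to -4.48 percentage points in 8 other settings. It was -7.42 to -5.24 points when a tumour or library was left out. There the sign could not turn, because every mA1 tumour was below every Con tumour. The share of all cells ranged from -2.95 to 0.347 points with a tumour or library left out, and turned sign without Con library 1. The count of genes called was 26 with no filter on low counts (11 higher and 15 lower in mA1), 1 with libraries as samples (Il4i1), 1 without members holding 10 or more alveolar macrophage UMIs (Cenpf; an alternative chosen after seeing the data) and 0 to 6 with a tumour or library left out. The 6 without Con library 1 included the sex-linked Xist, Tsix, Ddx3y, Eif2s3y and Uty. The causes were not tested. Interaction calls numbered 139 with no filter, 0 with libraries as samples and 1 to 19 with a library left out.

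The log2 fold change of Malat1 ranged from -0.12 to 0.19 with a tumour or library left out. The Trem2 difference was -1.25 points with cells thinned to 1000 UMIs, and -6.32 to 18.6 with a library left out. A replicate block by library number called 0 genes, with 289 at an unadjusted p under 0.05. Libraries with the same number deviated together with r = 0.0741 over 2515 genes, and only the number links them. The members of a tumour, 46 at the fewest, limit what can be detected for low genes.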

Other observations

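Some receptors and factors outside the comparisons above also differed in level between C1q and alveolar macrophages. Fcgr4, Axl and Mertk did not reach the 2-fold measure. Of 6 Fc receptor genes, 2 were higher and 0 lower, where 8.55% of all genes compared were higher. The higher ones included Fcgr1, the high-affinity IgG receptor, at 175.0 ± 27.9 CPM in C1q macrophages and 41.4 ± 7.68 CPM in alveolar macrophages (SD, n = 8 tumours). Fcgr4 was at 67.2 ± 17.3 CPM in C1q and 81.9 ± 14.8 CPM in alveolar macrophages. The clearance receptors Axl and Mertk, which bind dying cells, were at 347.0 and 60.8 CPM in C1q macrophages and at 469.0 and 117.0 CPM in alveolar macrophages, while their ligand gene Gas6 was at 17.2 and 0.208 CPM in the same order. Pdgfb, a growth factor for stromal cells, was at 71.1 ± 18.0 CPM in C1q macrophages and 5.1 ± 1.91 CPM in alveolar macrophages. The anti-inflammatory cytokine gene Il10 stayed low, at 6.05 ± 6.67 CPM in C1q macrophages and 0.0528 CPM in alveolar macrophages.

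Some genes that did not pass the test differed in value between the groups and were chosen after their values were seen. Cxcl10 was at 39.3, 85.3, 84.4 and 61.8 CPM in mA1 tumours and at 128.0, 125.0, 240.0 and 114.0 CPM in Con tumours, without overlap (log2 fold change -1.05 ± 0.26, SE; edgeR adjusted p = 0.96). With no filter on low counts its fold change was nearly the same, at -1.06, and it was among the 26 genes that passed (edgeR adjusted p = 1.33e-07). It passed in no other alternative, and DESeq2 called 0 genes. Ccl7, a monocyte attractant, averaged 32.5 ± 13.9 CPM in mA1 and 55.6 ± 12.8 CPM in Con tumours. Vegfa averaged 47.2 ± 19.7 CPM in mA1 and 24.6 ± 5.1 CPM in Con tumours. Il4i1, an amino acid oxidase gene of cluster 5, was at 4.92, 43.7, 14.1 and 35.0 CPM in mA1 tumours and at 3.18, 6.61, 4.66 and 1.05 CPM in Con tumours, which overlapped, and was too low to be tested over tumours.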
